A study of Mus musculus with 6 samples.

Results

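The genes examined were 10 that place a B cell in a lymphoid organ or hold it in the follicle: the receptors *Cxcr4*, *Cxcr5*, *Ccr7*, *Ccr6*, *Gpr183*, *S1pr1* and *S1pr2*, and the signaling proteins *Rgs1*, *Gna13* and *Gcsam*. They are listed by name for this known function, though with earlier results of these data known, and all 10 were found among the 24499 genes of the table and were among the 13296 genes with enough reads to be tested. The cells were *in vitro* germinal center B cells (iGCBs), which are naïve splenic B cells cultured for 3 days on 40LB feeder cells with 1 ng/ml of IL-4. These feeders are BALB/c 3T3 fibroblasts of a line that expresses CD40L and BAFF, and were irradiated at 120 Gy. From cKO mice (*Eif3e* fl/fl with *Cγ1*Cre and the *Rosa26-YFP* LSL reporter, on the C57BL/6J background), 3 libraries were compared with 3 control libraries. The paper describes them as 3 biological replicates. Every library was made from sorted YFP+ cells, which have activated the Cre reporter. *Cγ1*Cre acts in B cells that transcribe the Igγ1 constant region, where it deletes *Eif3e*, which encodes a subunit of the translation initiation factor eIF3. Whether some of the input cells had lost *Eif3e* before the culture was not tested. The labels call the control genotype of these libraries only control. In its work on mice the study used *Cγ1*Cre with the same reporter as control, and sorting for YFP needs both. The age and sex of these mice were not given in the sources used here. A general culture protocol in the labels names 4 days, while the sample titles and the design give 3.

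The 10 genes belong to the guidance system of lymphoid organs. CXCR5 draws B cells to CXCL13 in the follicle, CCR7 to CCL19 and CCL21 in the T zone, GPR183 (EBI2) to oxysterols at the outer and T zone edges of the follicle, CCR6 to CCL20, and CXCR4 to CXCL12, which is abundant in the dark zone of the germinal center. S1PR1 guides lymphocytes toward sphingosine-1-phosphate (S1P) in blood and lymph and so promotes egress, whereas S1PR2 reads the same lipid but, through Gα13 (*Gna13*), ARHGEF1 and RhoA, opposes migration and keeps germinal center B cells clustered. RGS1 speeds the shutoff of the Gαi proteins that most chemokine receptors use, and GCSAM is an adaptor of germinal center B cells that limits their motility. In a normal germinal center reaction, *S1pr2* and *Cxcr4* are high, and *Gpr183*, *S1pr1* and *Ccr7* are reduced.

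Library totals ranged from 39079582 to 45504570 estimated counts, and 3 counts corresponded to 0.0661 to 0.0763 CPM (the counts of a gene relative to the TMM-scaled library size). *Eif3e* itself was measured at 173, 150 and 152 CPM in cKO replicates 1 to 3 and at 424, 401 and 392 CPM in control replicates 1 to 3, a log2 fold change of −1.36 (standard error 0.0657, edgeR adjusted p = 6.71e-07). The 8 markers of B cells summed to 4803 to 4998 CPM in cKO and to 4785 to 5092 CPM in control libraries, with 1 of the 8 (*Blk*) called lower. The 6 markers of germinal center B cells, *Bcl6* and *Fas* among them, summed to 266 to 278 CPM in cKO and 341 to 390 CPM in control libraries, and all 6 were detected. *Xist* had at least 53272 counts in cKO replicate 2 and control replicates 1 and 2 and at most 16 counts in the other 3 libraries, so libraries with and without *Xist* were unevenly spread over the groups.

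Of the 10 genes, 6 were lower in cKO iGCBs and none was higher. *Gcsam*, *Cxcr4*, *Rgs1*, *S1pr1*, *Ccr7* and *Cxcr5* fell, by between 1.69-fold and 6.71-fold. *Gna13* was lower by 1.29-fold, which passed the test but not the cutoff on size, and *S1pr2*, *Ccr6* and *Gpr183* passed neither cutoff. A call needed a fold change over 1.5 and, over all 13296 genes, an adjusted p under 0.05 in the quasi-likelihood test of edgeR, and 10.6% of all tested genes were called lower and 10.4% higher by this rule. By the adjusted p alone, 7 of the 10 genes were lower and 0 were higher, beside 24.5% and 24.1% of all tested genes. The cKO libraries all lay below the control libraries for 7 of the 10 genes and above them for 0, where 29.5% of all tested genes were separated in the first direction and 29.2% in the second. For a gene so separated the two-sided exact permutation test gives p = 0.1, the smallest that 3 libraries against 3 allow. The median log2 fold change was −0.82 over the 10 genes and −0.0040 over all tested genes. In bulk RNA of a sorted population, fewer cells of a type and less RNA per cell cannot be told apart.

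**Figure D1:**
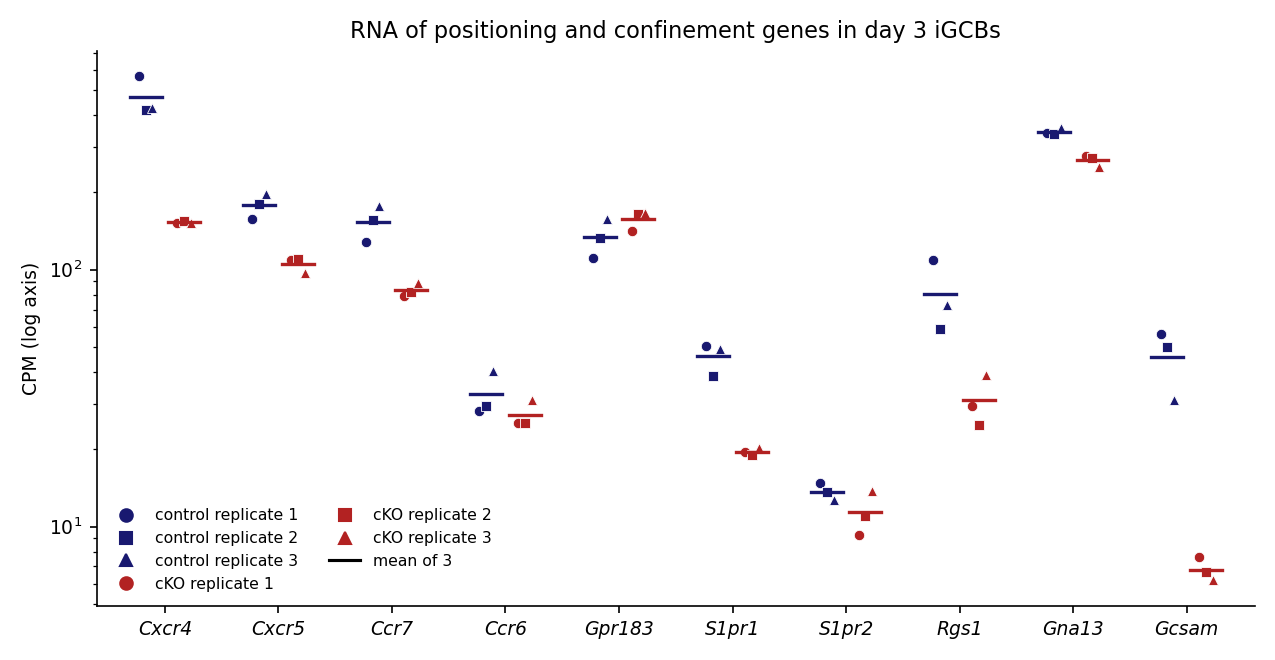
CPM (log axis) of the 10 genes in each of the 6 libraries, with control in dark blue and cKO in red, 1 symbol shape per replicate number and a bar at the mean of 3. The cKO symbols lie below all control symbols for 7 genes, while those of *S1pr2*, *Ccr6* and *Gpr183* overlap with them.

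**Figure D2:**
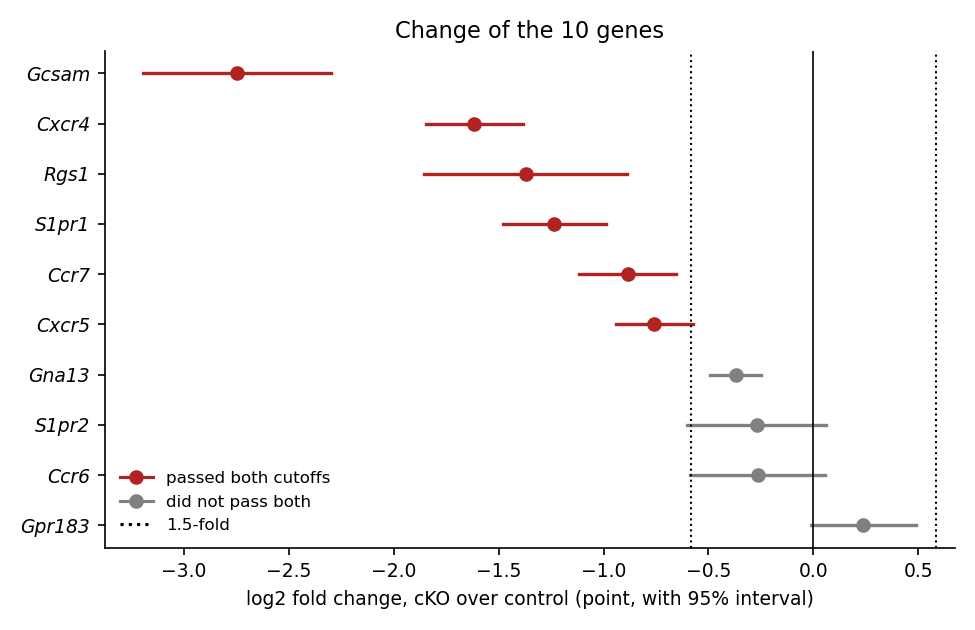
Log2 fold change of each gene, cKO over control, from edgeR with its 95% interval; dotted lines mark 1.5-fold in either direction. The intervals run from −3.19 to −2.30 for *Gcsam* at the left to −0.012 to 0.49 for *Gpr183* at the right.

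Of the receptors that favour the germinal center dark zone and the follicle, *Cxcr4* moved most. *Cxcr4* was measured at 152, 155 and 152 CPM in cKO replicates 1 to 3 and at 567, 417 and 426 CPM in control replicates 1 to 3. The cKO libraries stood close together (coefficient of variation 1.06%), whereas the control libraries varied by 17.9%, and the groups were far apart. The fall was 3.07-fold (log2 fold change −1.62, standard error 0.104, 95% interval −1.85 to −1.38, edgeR adjusted p = 2.47e-06). *Cxcr5*, the receptor for CXCL13, was at 109, 110 and 97.2 CPM in cKO and at 158, 180 and 196 CPM in control libraries. Every cKO library was again below every control library, with a fall of 1.69-fold (log2 fold change −0.76, standard error 0.0824, interval −0.94 to −0.58, edgeR adjusted p = 4.45e-05). The upper bound of this interval crosses the 1.5-fold line, and *Cxcr5* was the called gene closest to that cutoff, with *Gna13* the closest outside it. In a test against 1.5-fold itself, 5 of the 10 genes were called lower, and *Cxcr5* was not among them. The log2 ratio of *Cxcr4* to *Cxcr5* counts within a library was 0.54 ± 0.092 in cKO against 1.39 ± 0.39 in control libraries (SD, n = 3 each). The ratios did not overlap between groups, at an exact permutation p of 0.1 (two-sided, the smallest that 3 against 3 allows; 0.2 after Benjamini-Hochberg adjustment over the 4 ratios computed).

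*Ccr7*, the receptor for T zone chemokines, fell as well. It was at 78.7, 81.6 and 89.0 CPM in cKO replicates 1 to 3 and at 128, 156 and 177 CPM in control replicates 1 to 3. The lowest control library was well above the highest cKO library. The change was 1.85-fold (log2 fold change −0.89, standard error 0.104, interval −1.12 to −0.65, edgeR adjusted p = 7.23e-05). The log2 ratio of *Ccr7* to *Cxcr5* counts was −0.34 ± 0.19 in cKO against −0.22 ± 0.077 in control libraries (SD, n = 3 each), and here the groups overlapped (difference −0.12, exact permutation p = 0.4). The RNA balance between the T zone and the follicle receptor was therefore not separable between the genotypes at this number of libraries. *Ccr6*, the CCL20 receptor of activated and memory B cells, was at 25.2, 25.2 and 31.2 CPM in cKO and at 28.3, 29.4 and 40.5 CPM in control libraries. These values overlapped, and the log2 fold change was −0.27 (interval −0.59 to 0.057, edgeR adjusted p = 0.158). The edgeR adjusted p was 0.0301 with the *Xist* level as a covariate (change −0.37) and 0.0455 with the replicate number as a block (−0.25), while without control replicate 3 the change was −0.082 (edgeR adjusted p = 0.621), so the result for *Ccr6* depended on the fit.

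*Gpr183* was the only one of the 10 genes with a positive fold change, and whether it passed the adjusted p depended on the fit. This oxysterol receptor, which is normally shut down as a B cell enters the germinal center, was at 141, 165 and 167 CPM in cKO and at 111, 133 and 157 CPM in control libraries. Control replicate 3 lay within the cKO range, and the other controls lay below it. The log2 fold change was 0.24 (standard error 0.113, interval −0.012 to 0.49, edgeR adjusted p = 0.106), and DESeq2 gave the same direction with an adjusted p of 0.0381. In edgeR the adjusted p was 0.0186 with the replicate number as a block, 0.00780 with the feeder markers as a covariate and 0.00933 without control replicate 3, whereas it was 0.351 without control replicate 1 and 0.196 with a covariate for *Xist*. The change stayed under 1.5-fold in all of these fits. Among libraries with *Xist* (1 cKO, 2 control) the mean log2 CPM of *Gpr183* differed by 0.44, cKO minus control. Among those without it (2 cKO, 1 control) the difference was −0.031, so the positive sign did not hold in both. *Gpr183* lies inside *Ubac2*, which is transcribed from the opposite strand and was at 48.4 ± 0.860 CPM in cKO against 37.0 ± 4.66 CPM in control libraries (SD, n = 3 each). Whether the counting used strand was not given in the sources used here, so reads of the pair may not be fully separated. *Cxcr5* overlaps *Bcl9l* and *Gna13* overlaps the antisense gene *Gm11696* in the same way.

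Of the S1P receptors, *S1pr1* fell and *S1pr2* did not pass the test. *S1pr1*, the egress receptor, was at 19.5, 19.0 and 20.2 CPM in cKO replicates 1 to 3 and at 50.7, 38.5 and 48.9 CPM in control replicates 1 to 3. The cKO libraries stood close together and far below the controls, at 42.5% of the control mean. *S1pr1* fell 2.35-fold (log2 fold change −1.24, standard error 0.110, interval −1.48 to −0.99, edgeR adjusted p = 1.33e-05). *S1pr2*, the confinement receptor, was at 9.30, 11.0 and 13.7 CPM in cKO and at 14.8, 13.6 and 12.7 CPM in control libraries. cKO replicate 3 was above control replicates 2 and 3, and the change of −0.27 on the log2 scale (interval −0.60 to 0.059) had an edgeR adjusted p of 0.160. It was −0.43 without cKO replicate 3 (edgeR adjusted p = 0.0271) and −0.15 without cKO replicate 1 (edgeR adjusted p = 0.440), both under 1.5-fold. The log2 ratio of *S1pr2* to *S1pr1* counts was −1.07, −0.78 and −0.55 in cKO and −1.78, −1.50 and −1.94 in control libraries. Relative to *S1pr1*, *S1pr2* was thus higher in every cKO library than in any control library (difference 0.94, exact permutation p = 0.1, adjusted p = 0.2). The log2 ratio of *Gpr183* to *S1pr2* was 3.81 ± 0.18 in cKO against 3.28 ± 0.36 in control libraries (SD, n = 3 each) and overlapped (exact permutation p = 0.2, adjusted p = 0.267).

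Downstream of the receptors, *Rgs1* fell with them. This brake on Gαi signaling was at 29.6, 24.8 and 38.8 CPM in cKO replicates 1 to 3 and at 109, 58.7 and 73.0 CPM in control replicates 1 to 3. Both groups were widely spread, with control replicate 1 far above the rest, yet no cKO library reached a control library. The fall was 2.59-fold (log2 fold change −1.37, standard error 0.218, interval −1.86 to −0.89, edgeR adjusted p = 0.000514). *Gna13*, the Gα subunit that S1PR2 uses, was at 277, 272 and 250.1 CPM in cKO and at 341, 336 and 356 CPM in control libraries. The groups were separate but only 1.29-fold apart (log2 fold change −0.37, standard error 0.0544, edgeR adjusted p = 0.000317).

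*Gcsam* showed the largest change of the 10 genes and ranked 136 of 13296 tested genes by the size of its log2 fold change. It was at 7.60, 6.65 and 6.18 CPM in cKO replicates 1 to 3 and at 56.1, 49.9 and 31.2 CPM in control replicates 1 to 3. Even the lowest control library was several times above the highest cKO library. *Gcsam* fell 6.71-fold, to 14.9% of the control mean (log2 fold change −2.75, standard error 0.201, interval −3.19 to −2.30, edgeR adjusted p = 4.29e-06). Control replicate 1 had the highest level of *Gcsam*, *Cxcr4*, *Rgs1* and *S1pr1* among all 6 libraries, and all 4 of these genes passed both cutoffs without it too.

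Promoter sequences are shown for the pair of genes that fell most and for the only gene with a positive change, because these lie at the ends of the range of changes. RefSeq start sites on GRCm38.p6 gave windows of 300 bases (250 before the start and 50 after it) for 6 of the 10 genes, 7 windows in all. *S1pr1*, *Cxcr5*, *Ccr7* and *Rgs1*, all called lower, had no window, so their promoters were not searched. Each window below is printed 5′ to 3′ on the strand of the gene, and capitals mark a match to CACCC, the core bound by KLF factors, on either strand (GGGTG where it lies on the other strand).
*Cxcr4*, chr1:128592250-128592549, minus strand: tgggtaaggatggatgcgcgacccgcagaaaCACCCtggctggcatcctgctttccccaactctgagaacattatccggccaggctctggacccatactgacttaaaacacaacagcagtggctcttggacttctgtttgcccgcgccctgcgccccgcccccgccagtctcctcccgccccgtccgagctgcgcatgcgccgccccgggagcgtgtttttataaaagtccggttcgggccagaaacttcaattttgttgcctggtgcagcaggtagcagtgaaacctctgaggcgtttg
*Gcsam*, chr16:45610190-45610489, plus strand: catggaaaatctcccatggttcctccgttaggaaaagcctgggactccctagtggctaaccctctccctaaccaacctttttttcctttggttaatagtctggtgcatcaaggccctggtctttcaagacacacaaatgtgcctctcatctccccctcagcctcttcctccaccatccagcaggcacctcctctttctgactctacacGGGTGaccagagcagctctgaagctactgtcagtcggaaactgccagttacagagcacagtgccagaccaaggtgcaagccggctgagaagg
*Gpr183*, chr14:121965144-121965443, minus strand: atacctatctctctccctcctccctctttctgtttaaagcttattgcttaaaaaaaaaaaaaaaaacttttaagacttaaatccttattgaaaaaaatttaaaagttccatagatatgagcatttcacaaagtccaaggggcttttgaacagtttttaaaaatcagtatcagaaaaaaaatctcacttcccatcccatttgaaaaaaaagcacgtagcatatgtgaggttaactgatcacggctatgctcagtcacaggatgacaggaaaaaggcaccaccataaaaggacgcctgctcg
The *Cxcr4* window had 1 match at position −219 and the *Gcsam* window 1 at position −42 from the start site, while the *Gpr183* window had none. *S1pr2* (at −98) and *Gna13* (at −1) had 1 match each and the *Ccr6* windows none. Whether a match goes with the change of a gene was not tested. Of all 32851 windows, 57.5% held CACCC. The FOXO motif TGTTTAC (in 3.6% of all windows) and the C/EBP-ATF motif TGATGNAA (4.0%) were in none of the 7 windows, and the cAMP response motif TGACGTCA (1.8%) was only in that of *S1pr2*, at −181. The E-box CAGNTG (51.4%) was found 3 times in the *S1pr2* window and in no other, and the NF-kB pattern of GGG, any 5 bases and CC (50.8%) in the *Gna13* window 3 times and in a *Ccr6* window at 2 overlapping positions. Both strands were searched for every motif, and a match describes only the letters in the window. The window of *Gpr183* was AT-rich, with 35.3% G and C, against 59.3% for *Cxcr4*, 53.0% for *Gcsam* and a median of 52.7% over all windows.

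Levels can be set side by side between genes only per length of transcript. In CPM per kilobase, *Cxcr4* was the most abundant of the 10 genes in both groups, at 261 ± 46.6 in control and 85.0 ± 0.901 in cKO iGCBs, and *S1pr2* the least, at 2.14 ± 0.163 against 1.78 ± 0.350 (SD, n = 3 each). In control iGCBs the order below *Cxcr4* was *Ccr7* (77.7), *Cxcr5* (68.2), *Gna13* (55.9), *Gpr183* (49.1), *Ccr6* (21.0), *Rgs1* (20.9), *Gcsam* (17.6) and *S1pr1* (15.1). In cKO iGCBs it was *Gpr183* (57.9), *Gna13* (43.3), *Ccr7* (42.0), *Cxcr5* (40.3), *Ccr6* (16.9), *Rgs1* (8.09), *S1pr1* (6.42) and *Gcsam* (2.50). *Gpr183* thus moved from rank 5 to rank 2 while its own CPM overlapped between groups, and *Ccr7*, *Cxcr5* and *Gna13*, which ranked above it in control iGCBs, had lower values in cKO iGCBs. Neighbours whose libraries overlapped, and whose order is therefore not settled, were *Ccr7* with *Cxcr5*, *Gna13* with *Gpr183*, and *Ccr6*, *Rgs1*, *Gcsam* and *S1pr1* in turn in control iGCBs. In cKO iGCBs they were *Gna13* with *Ccr7*, *Ccr7* with *Cxcr5*, and *Rgs1* with *S1pr1*.

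The 7 receptors together carried 250.3 ± 7.91 CPM per kilobase in cKO against 494 ± 29.0 in control iGCBs (SD, n = 3 each), so the summed receptor RNA in cKO was 50.7% of control. Its make-up differed as well. *Cxcr4* held 35.0%, 33.9% and 33.0% of the sum in cKO replicates 1 to 3, against 60.8%, 50.1% and 47.0% in control replicates 1 to 3. *Gpr183* held 21.5%, 23.9% and 23.9% in cKO and 7.88%, 10.6% and 11.5% in control libraries, without overlap. *Ccr6* (6.73 ± 0.763% against 4.25 ± 0.902%) and *S1pr2* (0.707 ± 0.121% against 0.434 ± 0.0345%) also took larger shares in every cKO library, *S1pr1* took a smaller one, and *Ccr7* and *Cxcr5* overlapped. These shares sum to 100% within a library, so a larger share does not mean a higher level, and for *Gpr183*, *Ccr6* and *S1pr2* no rise was called.

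**Figure D3:**
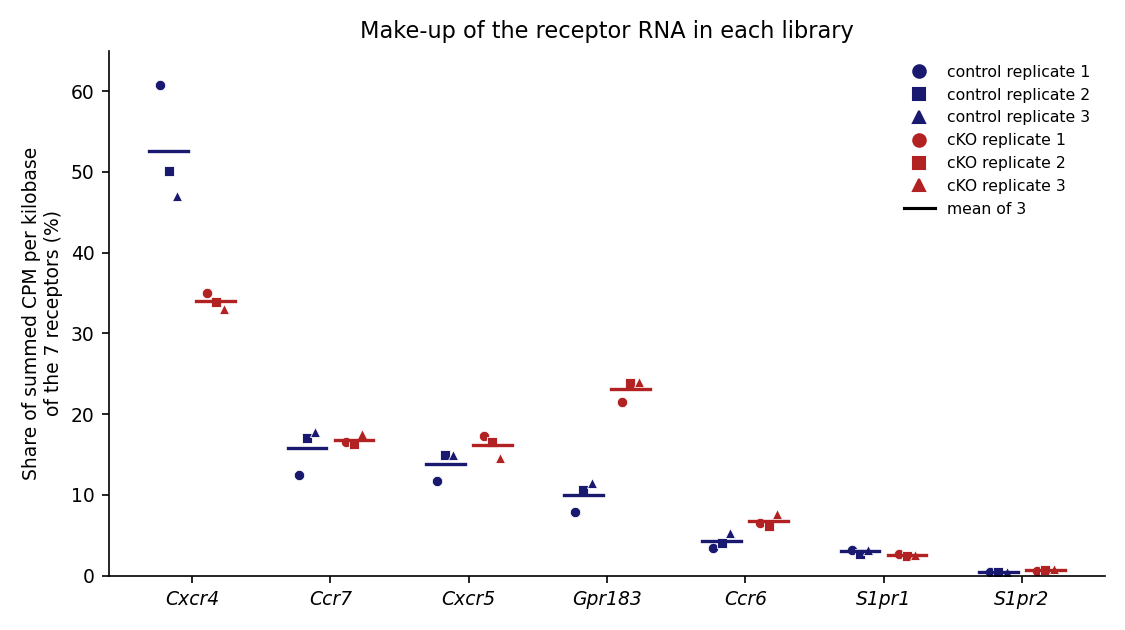
Share of each receptor (percent, linear axis from 0) in the summed CPM per kilobase of the 7 receptors, with control in dark blue, cKO in red, 1 symbol shape per replicate number and a bar at the mean of 3. *Cxcr4* covers 47.0% to 60.8% of control and 33.0% to 35.0% of cKO receptor RNA, and *Gpr183* 7.88% to 11.5% and 21.5% to 23.9%.

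On GRCm38 (GENCODE M21), *S1pr1*, *S1pr2*, *Gpr183* and *Ccr6* have their coding sequence in 1 exon, *Cxcr4* and *Cxcr5* in 2, *Ccr7* in 3, *Gna13* in 4 and *Rgs1* and *Gcsam* in 5. *Cxcr4* (chr1:128588199-128592293) and *Rgs1* (chr1:144242296-144249242) both lie on the minus strand of chromosome 1, and *S1pr2* (chr9:20962361-20976781) and *Cxcr5* (chr9:44511787-44561877) on the minus strand of chromosome 9. *Ccr7* (chr11:99144196-99155077, minus strand) and *Gna13* (chr11:109362831-109401369, plus strand) share chromosome 11. *S1pr1* is at chr3:115710433-115715072 (minus strand), *Gpr183* at chr14:121952551-121965195 (minus strand), *Gcsam* at chr16:45610380-45622867 (plus strand) and *Ccr6* at chr17:8236043-8257141 (plus strand).

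The transcript table holds 18 RefSeq transcripts of the 10 genes, and 14 had enough reads to be tested. By both cutoffs 7 of them were lower in cKO and 0 were higher, where 6.8% of the 18040 transcripts tested were lower and 6.26% higher. Leaving out a library gave 5 to 7 lower transcripts, with 5 without cKO replicate 2. A single transcript is listed for 7 genes, so only *Gcsam*, *Ccr7* and *Ccr6* could change in make-up. Both transcripts of *Gcsam* fell, the more abundant one from 32.9, 41.1 and 18.9 CPM in control to 5.22, 5.08 and 4.82 CPM in cKO libraries and the other from 23.4, 8.88 and 12.3 to 2.38, 1.55 and 1.37 CPM (log2 fold changes −2.62 and −3.07, edgeR adjusted p = 0.00279 and 0.00631). The main transcript of *Ccr7*, which held 67.2% to 97.2% of the gene's counts, fell as well (log2 fold change −0.69, edgeR adjusted p = 0.0130). The other *Ccr7* transcript ranged from 2.23 to 51.2 CPM over the 6 libraries and did not pass the test. For *Ccr6*, the main transcript was flat (log2 fold change 0.040), and a minor one, at 0.110, 0.355 and 0.970 CPM in cKO and 1.80, 4.56 and 1.48 CPM in control libraries, was lower in every cKO library but did not pass (log2 fold change −2.44, edgeR adjusted p = 0.108). No change in transcript use was called for *Gcsam*, *Ccr7* or *Ccr6* by edgeR's diffSpliceDGE, with an edgeR adjusted p of 1.0 for each, while 1.37% of the 2990 genes tested were called. How StringTie divides reads between near-identical transcripts adds error that these counts do not show.

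The 10 genes were set beside 6 lists of partner genes. Over all tested genes, 10.6% were lower and 10.4% higher by both cutoffs. By the adjusted p alone these shares were 24.5% and 24.1%. The counts of each list below stand beside these shares, and no list was tested as a set. Among 23 tested chemoattractant receptors, 3 were lower and 0 higher by both cutoffs, with a median log2 fold change of −0.25. *S1pr4*, a further S1P receptor of lymphocytes, fell from 67.6, 57.0 and 51.7 CPM in control to 22.7, 20.5 and 21.1 CPM in cKO libraries (log2 fold change −1.46, edgeR adjusted p = 4.20e-06), while *S1pr3* was at 31.3 ± 6.66 and 26.8 ± 4.24 CPM (SD, n = 3 each, edgeR adjusted p = 0.272). The others were *Ccr10* (−2.09), the receptor for CCL27 and CCL28, and the scavenging receptor *Ackr2* (−2.26), both under 10 CPM and named after their values were seen.

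The next list holds G protein subunits of several classes together with the RhoA relay that S1PR2 and Gα13 use. Of 19 tested genes of the G protein and RhoA list, 1 was lower and 0 higher by both cutoffs, and 6 were lower and 5 higher by the adjusted p alone (median −0.088). The called gene was *Arhgef11*, a RhoA exchange factor, at 30.4 ± 4.95 CPM in cKO against 49.9 ± 0.874 CPM in control iGCBs (SD, n = 3 each; log2 fold change −0.72, edgeR adjusted p = 0.000399). *Arhgef1*, the exchange factor coupled to Gα13 in B cells, was at 592 ± 45.2 and 801 ± 43.0 CPM (SD, n = 3 each), with a change of −0.44 on the log2 scale (edgeR adjusted p = 0.000288) that stayed under 1.5-fold, as that of *Gna13* did. *Rhoa* was at 433 ± 1.23 and 428 ± 9.07 CPM (SD, n = 3 each) with overlapping libraries (log2 fold change 0.018, interval −0.082 to 0.12).

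Among the proteins that end G protein signaling, 3 of 18 tested genes were lower and 1 was higher (median −0.22). *Rgs16*, a relative of *Rgs1*, was at 8.97, 8.93 and 7.69 CPM in cKO and at 49.0, 29.1 and 16.4 CPM in control libraries (log2 fold change −1.89, edgeR adjusted p = 0.000689). Its control libraries were uneven (coefficient of variation 52.2%, against 32.5% for *Rgs1*), with control replicate 1 the highest for both genes. *Gpsm3*, a regulator of Gαi in leukocytes, fell from 66.4 ± 5.16 to 39.4 ± 2.33 CPM (SD, n = 3 each; log2 fold change −0.75, edgeR adjusted p = 3.83e-05). *Rgs10* (−0.64) was also lower and *Grk5*, a receptor kinase, was higher (1.01), both named after their values were seen, while *Rgs2* and *Rgs13* did not pass. The call of *Rgs10* was lost in 6 of 16 alternative fits, among them 4 of the 6 that left out a library (cKO replicate 1 or 2, control replicate 1 or 2), and that of *Grk5* in 0.

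In the motility machinery, 2 of 33 tested genes were lower and 1 was higher by both cutoffs (median −0.18). By the adjusted p alone, 17 were lower and 4 higher, so most of the lower genes were under 1.5-fold. *Pik3cg*, the catalytic subunit of the PI3 kinase that G protein βγ activates, fell 3.39-fold, from 42.4, 40.6 and 39.6 CPM in control to 13.1, 9.85 and 13.2 CPM in cKO libraries (log2 fold change −1.76, edgeR adjusted p = 2.97e-06). *Ezr*, which encodes ezrin, a linker of membrane and actin, fell from 545 ± 23.9 to 286 ± 11.7 CPM (SD, n = 3 each; log2 fold change −0.93, edgeR adjusted p = 1.58e-06). *Vav3*, an exchange factor for small GTPases, rose from 19.9 ± 0.850 to 50.6 ± 7.41 CPM (SD, n = 3 each; log2 fold change 1.34, edgeR adjusted p = 7.82e-06). *Dock2* and *Dock8*, Rac and Cdc42 exchange factors that lymphocyte migration needs, overlapped between groups (log2 fold changes −0.030 and 0.027).

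Of 20 factors known to set these receptors in lymphocytes, 5 were lower and 1 was higher by both cutoffs, and 10 were lower and 8 higher by the adjusted p alone (median −0.14). *Klf2*, a direct activator of *S1pr1* in lymphocytes, was at 185, 164 and 176 CPM in cKO and at 310, 288 and 347 CPM in control libraries (log2 fold change −0.85, edgeR adjusted p = 1.11e-05). *Cd69*, whose product binds S1PR1 and takes it from the surface, was at 231, 236 and 297 CPM in cKO and at 166, 135 and 147 CPM in control libraries (log2 fold change 0.77, edgeR adjusted p = 0.000163). For both genes the groups were separate, in opposite directions. *Klf13* (−0.99), *Mef2b* (−1.67), a transcription factor of germinal center B cells, and *Prdm1* (−1.13), the regulator of plasma cell differentiation, were lower too. *Foxo1* (−0.60, named after its values were seen), a factor of the dark zone program, was just past the 1.5-fold cutoff and fell short of it in 3 of 16 alternative fits, which were those with a covariate for *Xist*, without cKO replicate 1 and without control replicate 1. *Bcl6* was lower by less than 1.5-fold (log2 fold change −0.32, edgeR adjusted p = 0.00110).

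Of 19 listed genes for the ligands and the enzymes that make or break them down, 9 were below 1 CPM in every library and 12 were tested, and 1 was higher and 1 lower by both cutoffs (median 0.19). *Hsd3b7*, which degrades the oxysterol ligand of GPR183, was at 8.04 ± 0.841 CPM in cKO against 4.11 ± 1.16 CPM in control iGCBs (SD, n = 3 each; log2 fold change 0.97, edgeR adjusted p = 0.00323). *Sgpp2*, an S1P phosphatase, was under 3 CPM in every library (log2 fold change −1.53, edgeR adjusted p = 0.0387). The call of *Sgpp2* did not hold: 0 genes of the list were called lower with the *Xist* covariate, in the test against 1.5-fold, or without any one of cKO replicates 1 and 2 and control replicates 1 and 2. Both were named after their values were seen. *Sgpl1*, the S1P lyase, was at 99.8 ± 7.08 and 141 ± 5.14 CPM (SD, n = 3 each; log2 fold change −0.50, edgeR adjusted p = 0.000118), under 1.5-fold. *Ch25h* and *Cyp7b1*, which make that oxysterol, had at most 10 counts in any library.

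**Figure D4:**
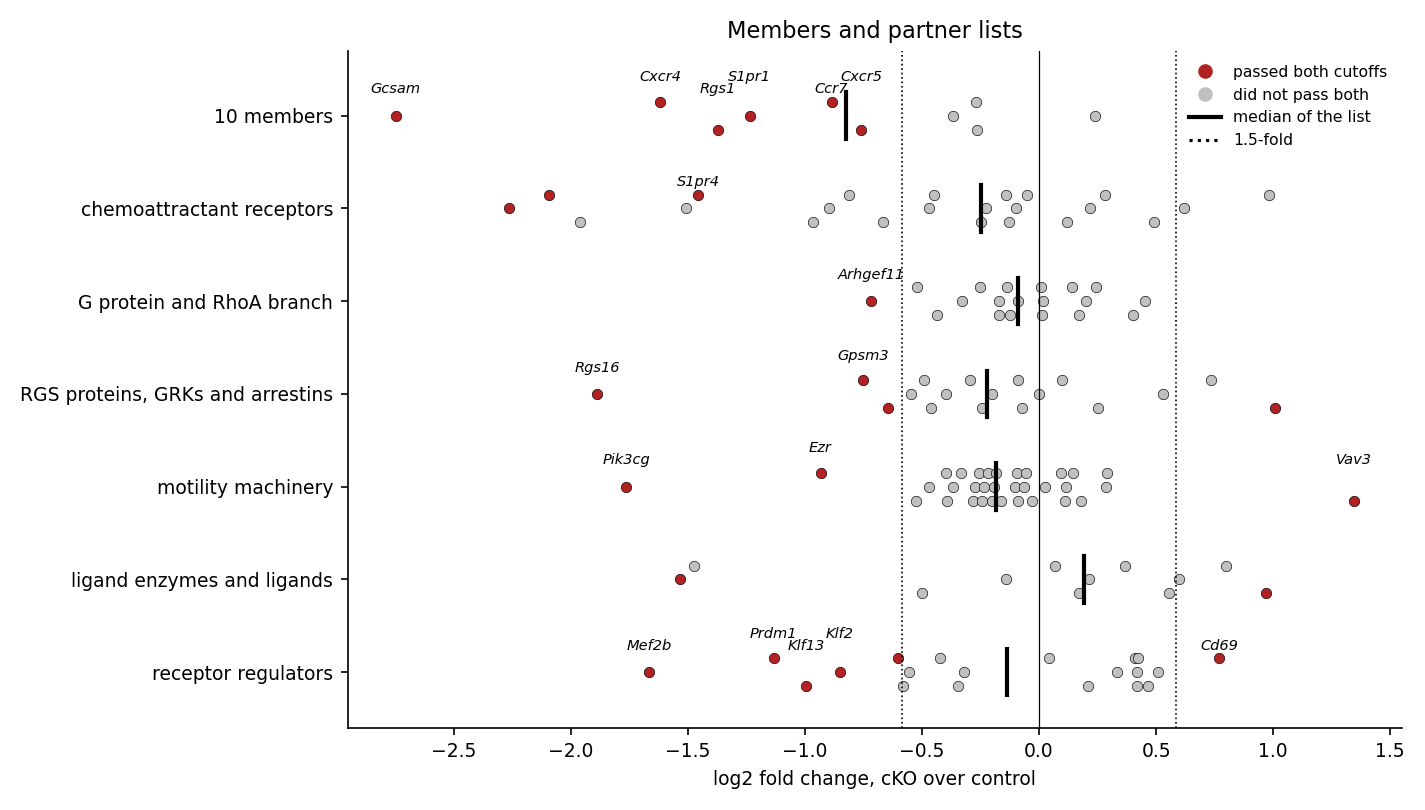
Log2 fold change, cKO over control, of the 10 genes and of the tested genes of 6 partner lists; red points passed both cutoffs, gray points did not, black bars mark each list's median and dotted lines 1.5-fold. The median of the 10 genes is −0.82, and those of the lists run from −0.25 to 0.19.

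Markers of other cells were measured beside these genes. The 12 fibroblast and feeder markers summed to 400 to 455 CPM in cKO and 397 to 520 CPM in control libraries, mostly from *Vim*, which B cells express as well, and 2 of them had no count in any library. Of the 9 tested, 2 (*Col5a1* and *Fn1*) were higher in cKO and 0 lower. Of the 7 T cell markers in the table, 6 were below 1 CPM in every library, and the sum of 23.3 to 25.7 CPM in cKO and 36.5 to 39.7 CPM in control libraries came almost entirely from *Lck*. Of 9 myeloid markers, 7 were below 1 CPM in every library, with sums of 12.1 to 13.7 CPM in cKO and 9.90 to 12.7 CPM in control libraries. Of the 3 tested, *Adgre1* was higher in cKO, at 3.64, 4.67 and 5.54 CPM against 0.620, 0.916 and 2.02 CPM (log2 fold change 1.96, edgeR adjusted p = 0.00203), and 0 were lower. Plasma cell markers summed to 960 to 1129 CPM in cKO and 1326 to 1387 CPM in control libraries, and naïve B cell markers to 1672 to 1759 CPM and 2038 to 2322 CPM. By both cutoffs, 4 of 6 tested plasma cell markers were lower and 1 higher, 2 of 7 naïve B cell markers lower and 1 higher, and 3 of 6 germinal center markers lower and 0 higher. The shares over all tested genes were 10.6% lower and 10.4% higher. The part of plasma cell, myeloid, naïve and germinal center B cell content in the changes of the 10 genes was not tested. With the mean level of the fibroblast and feeder markers as a covariate, the same 6 genes were called lower.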

How the data were processed

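Poly(A) RNA of 3 cKO and 3 control day 3 YFP+ iGCB samples was sequenced. According to the paper and the submitters' processing notes, the authors aligned reads with HISAT2 to mm10, quantified them with StringTie and deposited the estimated counts that its prepDE script gives for genes and for RefSeq transcripts. Versions were not given in the sources used here. These estimated counts are whole numbers without normalization. They derive from coverage and a read length setting, so totals are not numbers of fragments, and 3 counts is a floor for counting error only.

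Genes kept by filterByExpr (minimum count 10) were scaled by TMM and tested with glmQLFTest in edgeR 4.0.16 (R 4.3.3), with no covariate and Benjamini-Hochberg adjusted p-values. DESeq2 1.42.0 was an alternative. Log2 ratios used counts plus 0.5. CPM per kilobase divided each transcript's counts by the length of its GENCODE M21 model, which is the same model for both *Ccr7* transcripts. RefSeq transcripts were matched to genes for 34674 of 36026, and promoter windows came from RefSeq on GRCm38.p6. The genes and lists were chosen with earlier results of these data known. From each list, up to 5 called genes averaging 10 CPM or more were named by the largest change; others are said to be chosen after their values were seen, or are named as background to a comparison. The fit was tested on simulated data.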

Additional observations from a re-analysis of the deposited data

How the results depend on the processing

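The split by *Xist* given above for *Gpr183* is not among the alternatives here. The log2 fold changes of the 10 genes kept their direction, and the calls by both cutoffs stayed, under 16 alternatives of scaling, tool, filter, covariates and left-out libraries. The adjusted p alone crossed 0.05 for *Gpr183* in 4 of them, for *Ccr6* in 2 and for *S1pr2* in 1, as given above. With each library left out in turn, they ranged from −2.96 to −2.57 for *Gcsam*, −1.70 to −1.46 for *Cxcr4*, −1.56 to −1.08 for *Rgs1*, −1.36 to −1.16 for *S1pr1*, −0.84 to −0.68 for *Cxcr5*, −0.43 to −0.15 for *S1pr2*, −0.37 to −0.082 for *Ccr6* and 0.12 to 0.37 for *Gpr183*. Of the 10 genes 6 were called lower in every such fit. With all 6 libraries, 7 were lower by the adjusted p alone and 5 when tested against 1.5-fold. Over all genes, the adjusted p alone gave 3204 higher and 3264 lower, and the test against 1.5-fold 584 and 580. By the adjusted p alone, 1 chemoattractant receptor was higher and 5 lower, 5 G protein and RhoA genes higher and 6 lower, 6 RGS, GRK and arrestin genes lower, 4 motility genes higher and 17 lower, 3 ligand genes higher and 2 lower, and 8 regulators higher and 10 lower. Tested against 1.5-fold, 0 G protein and RhoA genes were lower, 1 RGS, GRK and arrestin gene was lower and 0 higher, 0 ligand genes were higher or lower, and 0 regulators were higher. With the *Xist* level as a covariate 0 ligand genes were lower, and with the feeder markers as a covariate 2 were higher. With a library left out, chemoattractant receptors called higher ranged from 0 to 1 (1 without control replicate 2 or 3), G protein and RhoA genes called higher from 0 to 1 (1 without control replicate 1), ligand genes called higher from 1 to 2 (2 without control replicate 3) and ligand genes called lower (*Sgpp2*) from 0 to 1 (0 without cKO replicate 1 or 2 or control replicate 1 or 2). The cause of these shifts was not tested.

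Deviations of libraries with the same replicate number were weakly correlated (0.0085, 0.084 and 0.13 for numbers 1, 2 and 3), and cKO replicate 1 correlated more with control replicate 3 (0.041) than with control replicate 1, so a pairing by number was not established and the reported fits have no block. With the replicate block, 6 of the 10 genes were lower, 8 of their transcripts were lower against 7 without it, 1 chemoattractant receptor and 2 ligand genes were called higher, and the ratio of *S1pr2* to *S1pr1* had a paired exact permutation p of 0.25, the smallest that 3 pairs allow. The lowest count of *S1pr2* was 422 and of *Gcsam* 262, and 3 libraries a group cannot give an exact permutation p below 0.1.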

Other observations

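Immediate early genes, which respond within minutes to signaling, summed to 3971 to 5051 CPM in cKO and 3255 to 4389 CPM in control libraries. Of 11 such genes, 3 were higher and 1 lower in cKO by both cutoffs, beside 10.4% and 10.6% of all tested genes. *Fos* was at 393 ± 108 CPM in cKO against 97.5 ± 16.3 CPM in control iGCBs (SD, n = 3 each; log2 fold change 2.01, edgeR adjusted p = 1.26e-05), *Jun* at 318 ± 4.41 and 141 ± 38.9 CPM, and *Egr3* was lower, at 108 ± 10.7 against 188 ± 55.8 CPM (edgeR adjusted p = 0.00308). The part of these genes in the change of *Cd69* was not tested.

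The plasma cell markers did not move one way. *Jchain* was at 7.25 ± 2.33 CPM in cKO against 116 ± 27.0 CPM in control iGCBs and *Xbp1* at 126 ± 11.3 and 269.9 ± 10.4 CPM, while *Sdc1* was higher in cKO, at 14.2 ± 1.04 against 4.70 ± 0.852 CPM (SD, n = 3 each; edgeR adjusted p = 2.06e-05). Of the germinal center markers, *Mybl1* (16.5 ± 2.35 against 31.5 ± 3.18 CPM) was lower, as *Mef2b* was, and *Fas* was higher by less than 1.5-fold (92.3 ± 3.32 against 69.5 ± 4.31 CPM; log2 fold change 0.41, edgeR adjusted p = 0.000360).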
